A study of Mus musculus with 14 samples.

Results

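The Kruppel-like factor genes Klf2, Klf3, Klf4, Klf5, Klf6, Klf7, Klf9, Klf10, Klf13 and Klf15 were followed region by region in mouse small intestinal organoids. Their members were the H3K27ac regions and ONECUT2 sites whose nearest mm10 protein-coding gene span, within 100 kb, was one of these genes. This gave 77 of 55050 H3K27ac regions and 10 of 7268 listed ONECUT2 sites, at 10 of 16105 genes with a region. H3K27ac is the acetylation of lysine 27 on histone H3 found at active promoters and enhancers. It was measured by ChIPmentation, in which Tn5 transposase adds sequencing adapters to antibody-bound chromatin. ONECUT2 is a homeodomain and cut-domain transcription factor.

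All cultures came from line26, labelled wild type with the genotype Lgr5GFPDTR/+ (a GFP and diphtheria toxin receptor insertion in 1 Lgr5 allele) and derived from a single mouse, so both groups model the epithelium of 1 animal. Organoids in the RANKL group were cultured with 3 µM CHIR99021, which activates Wnt signalling, and 1.5 mM valproic acid, a histone deacetylase inhibitor, for 3 days. After 1 day without these, 100 ng/mL RANKL, the cytokine that drives microfold (M) cell differentiation, was given for 6 days. The ENR group had 6 days in the growth medium of both groups, with EGF, Noggin and R-SPONDIN1, so the contrast is of the whole protocol and not of RANKL alone. Each antibody had 3 RANKL and 3 ENR libraries, numbered by experiment in the labels, and the p-values measure the spread between these experiments. Valproic acid acts on histone acetylation itself, and its part cannot be told apart from that of RANKL.

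The H3K27ac libraries held 2745451 to 3902301 reads in regions in RANKL cultures and 5434172 to 9160267 in ENR cultures. Of the listed markers of intestinal epithelium, all 9 were measured, 2 called higher and 6 lower, with a summed level of 2246 to 2359.8 CPM in RANKL cultures and 2326 to 2523 CPM in ENR cultures. Of 10 M cell markers, 9 were called higher with RANKL and 0 lower. CPM is the read count relative to library size after TMM scaling, for single regions or summed over the regions assigned to a gene. A region or gene is called where the adjusted p of edgeR's quasi-likelihood test, with Benjamini-Hochberg adjustment over all 54765 regions or 16038 genes tested, is under 0.05. In bulk chromatin, more cells carrying the mark and more acetylation per cell cannot be told apart.

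Kruppel-like factors bind GC boxes and CACCC boxes in DNA through zinc fingers near the carboxyl end of the protein. Klf4 and Klf5 are the best known of them in the gut, where Klf5 marks dividing crypt cells and Klf4 the differentiated cells that have left the cycle, among them goblet cells. Klf2, Klf4, Klf5, Klf6 and Klf7 belong to the subgroup that mostly activates transcription, Klf9, Klf10 and Klf13 to the one that binds the SIN3A corepressor, and Klf3 to the one that binds the CtBP corepressor.

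Promoter windows were present in the RefSeq table for 8 of the 10 genes, all but Klf5 and Klf10. The 250 bases before the RefSeq start are shown for Klf9 and Klf13, the genes with the largest gain and the largest loss of summed acetylation, and for Klf7, which has an ONECUT2 site just past its start. They run 5′ to 3′ on the strand of the gene (build GRCm38.p6), at chr19:23140976-23141225 (plus strand), chr7:63938916-63939165 (minus) and chr1:64121390-64121639 (minus). Capitals mark the letters GGGCGG of a GC box, and those of a CACCC box sought as GGGTG, on either strand, where matches of different motifs can overlap.
Klf9: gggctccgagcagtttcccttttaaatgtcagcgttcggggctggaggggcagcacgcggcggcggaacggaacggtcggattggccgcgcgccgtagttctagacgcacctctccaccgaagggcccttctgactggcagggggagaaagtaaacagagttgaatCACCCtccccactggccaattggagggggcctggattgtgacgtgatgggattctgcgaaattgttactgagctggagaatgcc
Klf13: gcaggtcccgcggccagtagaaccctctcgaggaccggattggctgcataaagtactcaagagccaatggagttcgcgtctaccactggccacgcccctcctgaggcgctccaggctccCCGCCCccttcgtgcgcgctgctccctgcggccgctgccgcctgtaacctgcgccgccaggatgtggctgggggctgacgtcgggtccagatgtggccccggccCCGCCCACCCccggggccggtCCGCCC
Klf7: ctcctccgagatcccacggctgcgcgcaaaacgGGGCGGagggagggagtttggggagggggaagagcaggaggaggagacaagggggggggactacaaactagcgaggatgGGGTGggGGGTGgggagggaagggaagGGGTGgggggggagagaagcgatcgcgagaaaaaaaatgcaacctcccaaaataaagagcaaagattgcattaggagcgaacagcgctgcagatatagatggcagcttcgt
The Klf13 window held 3 matches to GGGCGG and 1 to GGGTG, the Klf7 window 1 and 3, and the Klf9 window 0 and 1. Over all 32851 RefSeq windows of this length, 32.7% held GGGCGG and 52.0% held GGGTG. The windows of Klf3 and Klf4, which are not printed, held 6 and 4 matches to GGGCGG. The letters ATCAAT, a core of known ONECUT sites, were in none of the 8 windows on either strand, against 6.72% of all windows. ATCGAT was in none of the 8 either, against 0.728%. A match is a description of letters and not of binding.

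Of the 77 regions, all of which passed the filter on low counts, 14 were called higher and 20 lower with RANKL, and 43 were not called. The 34 called regions compare with 35.9% of all regions tested. Over all regions tested, 14.8% were called higher and 21.0% lower, so the members' shares of 18.2% and 26.0% stood near the background. By class, the shares called lower lay to either side of those of all regions. Away from gene ends, 25.8% of 66 member regions were lower, against 13.9% of all such regions. At gene ends, 3 of 11 member regions (27.3%) were lower, against 52.1%. Of the 20 lower member regions 9 belong to Klf13, and all of these but its start region lie away from gene ends. These class shares thus rest largely on 1 gene and on few regions. The median log2 fold was 0.011 over the members and 0.057 over all regions. All 3 RANKL libraries lay above all 3 ENR libraries at 21 member regions and below them at 22, against 20.6% and 24.2% of all regions. A call with a log2 fold of at least 1 was made for 4 gains and 7 losses among the 77 regions. Over all 54765 regions tested there were 4122 such gains (7.53%) and 2124 such losses (3.88%). The gains numbered 22 by library size only and 24 with the gene-level scaling, beside 15 losses in each, but over all regions the counts moved too, with 9918 higher and 9608 lower by library size and 11442 higher and 8445 lower with the gene-level scaling. With the trend of log2 fold on signal removed, 18 member regions were higher and 16 lower, of 8655 and 8276 over all regions. The 20 lower calls were 18 with the replicate block.

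The losses were spread unevenly over the genes. Klf13 held 9 of the 20 lower regions and 1 of the 14 higher regions, and Klf6 held 5 higher and 0 lower regions. Among the 39 regions of the activator genes, 10 were higher and 4 lower, and among the 30 regions of the SIN3A-binding genes, 4 were higher and 12 lower. Over all regions tested, 14.8% were higher and 21.0% lower. The SIN3A-binding genes did not move as 1 group: Klf13 had 9 lower regions, Klf10 3 and Klf9 0, beside 1, 1 and 2 higher regions. The map of log2 fold by distance from the gene start shows both directions at Klf4, Klf5, Klf10 and Klf13.

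**Figure D1:**
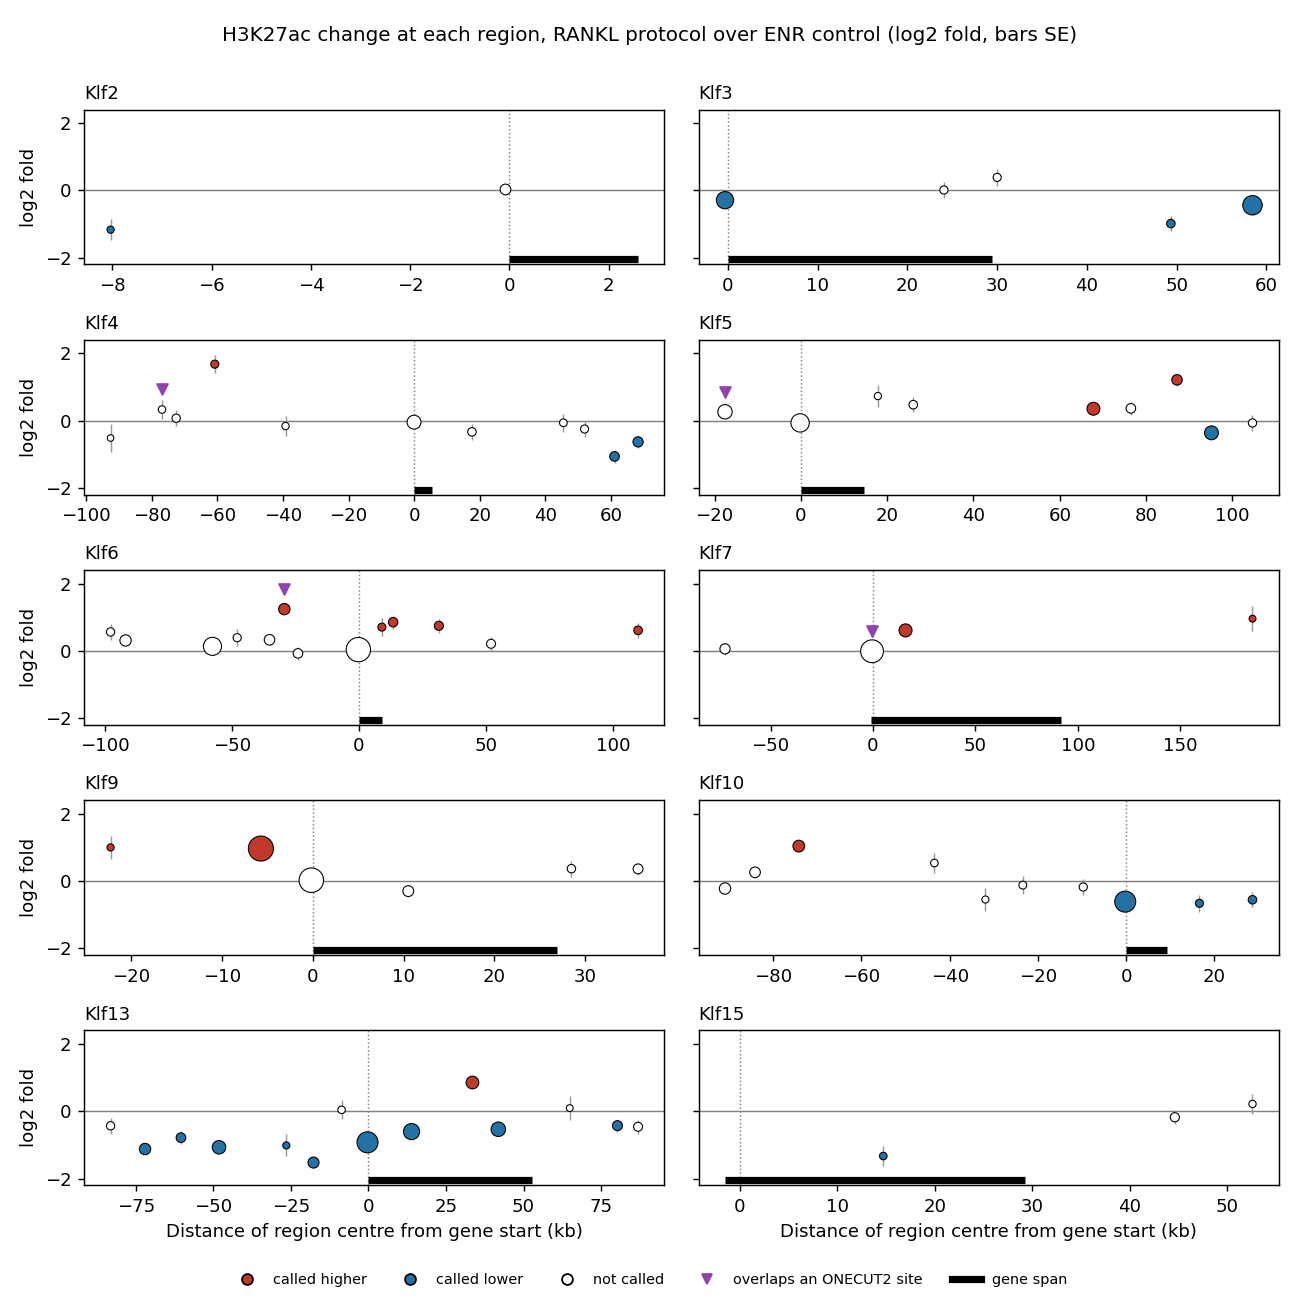
Each panel plots a gene's H3K27ac regions by the distance of their centre from the RefSeq start (kb, negative before the start) against the log2 fold of RANKL over ENR cultures. Bars give the SE, and symbol area grows with mean CPM. For Klf5 and Klf10 the distance is from the gene end that carries a region, negative on the outer side of that end. Positive distances there run through the gene and on past its other end. Red and blue mark called gains and losses, black bars the gene and purple triangles the regions with an ONECUT2 site. At Klf13, 9 of 14 regions are blue, and at Klf6 the 5 called regions are all red while the region at the start is at 0.035.

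On the TMM scaling of the gene sums, the largest fold change of a summed level was at Klf9. Klf9 is a SIN3A-binding factor whose gene responds to thyroid and glucocorticoid hormones. Its 6 regions together had 447, 419 and 407 CPM in the RANKL cultures, against 296, 262 and 288 CPM in the ENR cultures. The groups did not overlap, and the sum rose 1.51-fold (log2 fold 0.59 ± 0.049 (SE), adjusted p = 5.47e-18). On the scaling of the region table, the change was larger at Klf13 (log2 fold -0.65, against 0.44 at Klf9). The same held with the signal trend removed (log2 fold -0.63 at Klf13 and 0.47 at Klf9).

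The strongest of the 77 member regions, 4.70 kb before the Klf9 span, accounted for the largest rise in CPM (chr19:23134524-23136524). It had 199.6, 177 and 185 CPM in the RANKL cultures, against 103, 86.6 and 99.4 CPM in the ENR cultures (log2 fold 0.97 ± 0.10 (SE), adjusted p = 7.31e-18). Acetylation there rose 1.95-fold, while the median of the strongest of 10 equal classes of regions stood at a log2 fold of -0.28. The region across the Klf9 start (chr19:23140079-23142079), nearly as strong, had 146, 143 and 120.1 CPM in the RANKL cultures, against 144, 121 and 137 CPM in the ENR cultures. Here the groups overlapped (log2 fold 0.024 ± 0.10 (SE), adjusted p = 0.887). A weak region 21.2 kb before the span (chr19:23117979-23119979) also rose, with 7.97 ± 0.200 CPM in RANKL cultures and 3.93 ± 1.25 CPM in ENR cultures (SD, n = 3 each; log2 fold 1.00 ± 0.33 (SE), adjusted p = 0.0101). Its call ended without ENR replicate 1 (adjusted p = 0.0764).

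Klf13, a SIN3A-binding factor first known as an activator of the chemokine gene Ccl5 in T cells, moved the other way. Its 14 regions summed to 322, 328 and 353 CPM in the RANKL cultures, against 476, 466 and 480.4 CPM in the ENR cultures (log2 fold -0.50 ± 0.046 (SE), adjusted p = 4.20e-16), with every RANKL culture below every ENR culture. Summed acetylation was 1.41-fold lower with RANKL.

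The loss covered the start of Klf13 and several regions before it, though not the nearest of these. The region across the start (chr7:63938190-63940190) had 68.9, 70.6 and 63.2 CPM in the RANKL cultures, against 128, 122 and 134 CPM in the ENR cultures, and it fell 1.90-fold (log2 fold -0.92 ± 0.11 (SE), adjusted p = 4.75e-15). The fall was steepest 16.7 kb before the gene (chr7:63955597-63957597), where acetylation was 11.1, 12.4 and 11.1 CPM in the RANKL cultures, against 34.8, 31.2 and 33.9 CPM in the ENR cultures (log2 fold -1.53 ± 0.17 (SE), adjusted p = 1.49e-17), 2.88-fold lower. In both regions every RANKL culture was below every ENR culture. The one 16.7 kb before the gene overlaps a RefSeq promoter window listed under a symbol other than Klf13. The nearest region before the gene, at 7.63 kb (chr7:63946544-63948544), was not called (log2 fold 0.043, adjusted p = 0.928). It had 7.34 ± 2.60 CPM in RANKL cultures and 7.19 ± 0.274 CPM in ENR cultures (SD, n = 3 each). The region at 82.1 kb was not called either (adjusted p = 0.147).

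Further from the gene, the region at 47.1 kb (chr7:63986038-63988038) had 23.4 ± 4.67 CPM in RANKL cultures and 50.4 ± 4.86 CPM in ENR cultures (SD, n = 3 each; log2 fold -1.07 ± 0.13, adjusted p = 2.75e-14). The region at 71.0 kb (chr7:64009881-64011881) had 15.7 ± 4.10 CPM in RANKL cultures and 33.2 ± 2.37 CPM in ENR cultures (log2 fold -1.12 ± 0.16, adjusted p = 2.19e-11). The weak region at 25.4 kb (chr7:63964363-63966363), with 3.76 ± 2.33 CPM in RANKL cultures and 7.92 ± 1.88 CPM in ENR cultures, was called lower (log2 fold -1.02 ± 0.33 (SE), adjusted p = 0.00779), but not without RANKL replicate 1 (adjusted p = 0.129) or without ENR replicate 2 or 3. The 4 other lower regions of Klf13 had log2 folds of -0.43 to -0.79. The weakest of these calls, 26.7 kb past the gene, had an adjusted p of 0.0453 and of 0.0553 with the replicate block. It ended in 5 of the 6 fits without a library and in 10 of 13 other settings in all, which are those 6 and 7 other scalings, filters, tools or blocks. One of them removed the trend of log2 fold with signal. With that signal trend removed, the call inside the gene at a log2 fold of -0.54 ended (adjusted p = 0.113).

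Against this, a single region inside Klf13, 33.5 kb past the start (chr7:63904376-63906376), gained acetylation. It had 41.4, 41.1 and 41.5 CPM in the RANKL cultures, against 23.0, 24.5 and 20.4 CPM in the ENR cultures, with no overlap, a 1.81-fold rise (log2 fold 0.85 ± 0.13 (SE), adjusted p = 2.27e-09). The called regions on either side of it, also inside the gene, were lower, at log2 folds of -0.54 and -0.61.

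**Figure D2:**
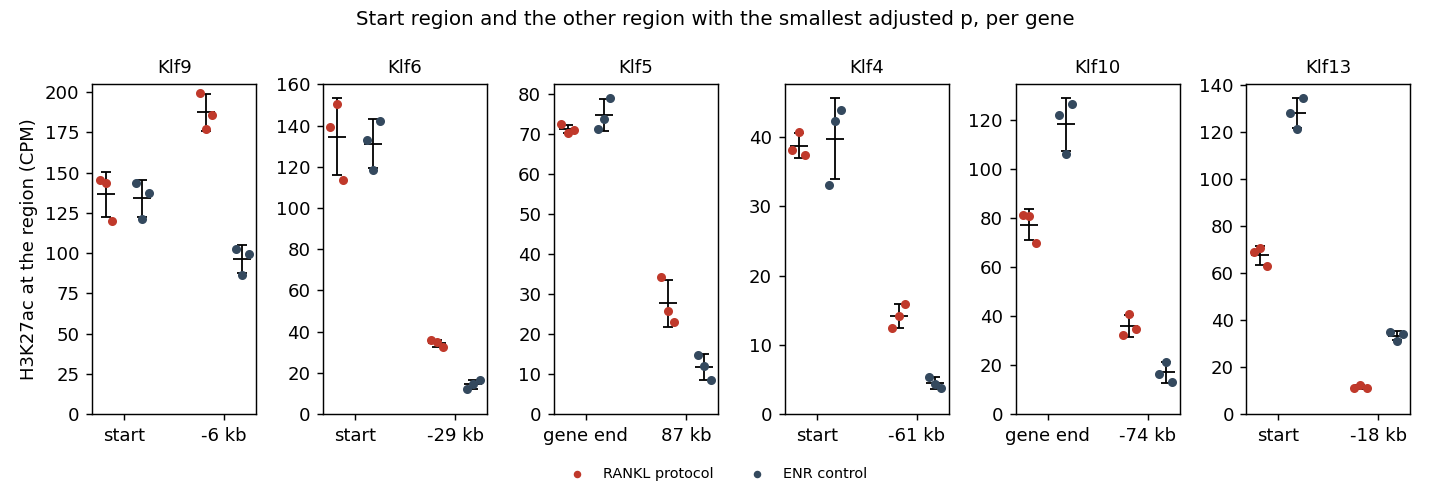
For 6 genes, points give H3K27ac (CPM, y axis from 0) in each of the 3 RANKL (red) and 3 ENR (dark) cultures, with bars for the mean and SD, at the region across the start (or, for Klf5 and Klf10, a gene end) and at the other called region with the smallest adjusted p, labelled by its distance from there. At Klf9, Klf6, Klf5 and Klf4 the groups overlap in the first pair and the second is higher with RANKL, while at Klf10 the first is lower and the second higher and at Klf13 both are lower.

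Klf10, a gene induced early by TGF-β signalling, also had a lower region at a gene end. That region (chr15:38299892-38301892) had 81.0, 80.9 and 69.9 CPM in the RANKL cultures, against 122, 106 and 127 CPM in the ENR cultures (log2 fold -0.61 ± 0.11 (SE), adjusted p = 2.16e-07), a 1.53-fold loss with no overlap. A pair of weak regions beyond the gene's lower-coordinate end were called lower, at adjusted p of 0.0298 for the one at 6.39 kb (chr15:38283069-38285069; log2 fold -0.66, 6.94 ± 2.02 CPM in RANKL cultures and 11.3 ± 2.90 CPM in ENR cultures) and 0.0443 for the one at 18.4 kb. The first call ended without RANKL replicate 1 or ENR replicate 1 and the second in 4 of the 6 fits without a library and with the replicate block (adjusted p = 0.0547). In all, 5 and 8 of 13 other settings ended these calls.

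On the other side of Klf10, 73.2 kb away (chr15:38373914-38375914), acetylation rose 2.05-fold. The region had 32.1, 40.8 and 34.5 CPM in the RANKL cultures, against 16.4, 21.3 and 13.1 CPM in the ENR cultures (log2 fold 1.04 ± 0.14 (SE), adjusted p = 3.40e-11). Summed over its 10 regions, Klf10 had 227 ± 14.8 CPM in RANKL cultures and 237 ± 8.77 CPM in ENR cultures (SD, n = 3 each) and was not called (adjusted p = 0.399). It was called lower with the signal trend removed (log2 fold -0.15, adjusted p = 0.0159), within 10 kb of the gene (log2 fold -0.39, adjusted p = 1.31e-05), within 2 kb of a gene end (log2 fold -0.28, adjusted p = 0.00392) and on the scaling of the region table.

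Klf6, a widely expressed activator induced by tissue injury, had the most regions called higher. Its 13 regions summed to 449, 484 and 418 CPM in the RANKL cultures, against 335, 323 and 345 CPM in the ENR cultures, and every RANKL culture was above every ENR culture (log2 fold 0.43 ± 0.047 (SE), adjusted p = 1.20e-12). The region across its start (chr13:5860265-5862265), among the strongest of the family, had 139.6, 150.3 and 114 CPM in the RANKL cultures, against 133, 118 and 142 CPM in the ENR cultures and overlapped between groups (log2 fold 0.035 ± 0.10 (SE), adjusted p = 0.830).

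The largest gain at Klf6 was 28.3 kb before the gene, in a region that overlaps an ONECUT2 site (chr13:5831160-5833160). Acetylation there was 35.7, 35.0 and 32.3 CPM in the RANKL cultures, against 12.2, 14.5 and 16.7 CPM in the ENR cultures (log2 fold 1.24 ± 0.15 (SE), adjusted p = 4.74e-14), a 2.36-fold rise with no overlap. At the far end of the gene (chr13:5869502-5871502) the region had 11.2 ± 1.95 CPM in RANKL cultures and 6.88 ± 2.95 CPM in ENR cultures (log2 fold 0.70, adjusted p = 0.0237), its groups overlapped, and it lost its call in 4 of the 6 fits without a library (without RANKL replicate 1 or 2, or ENR replicate 2 or 3) and 6 of 13 other settings in all. Past the gene, 3 further regions rose, with log2 folds of 0.61 to 0.85. The highest of these was 3.53 kb beyond the end, at 19.2 ± 5.68 CPM in RANKL cultures and 10.7 ± 2.53 CPM in ENR cultures. The call at 99.8 kb ended in 3 of the 6 fits without a library and that at 21.5 kb in 1 of the 6.

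Klf5, the factor of dividing crypt cells, gained acetylation away from its ends. Its 9 regions summed to 305, 293 and 285 CPM in the RANKL cultures, against 235, 239.9 and 233 CPM in the ENR cultures (log2 fold 0.31 ± 0.052 (SE), adjusted p = 4.00e-07). The Klf5 sum within 10 kb of the gene, scaled among such sums, had a log2 fold of 0.18 (adjusted p = 0.0677). Within 2 kb of a gene end, scaled likewise, the sum was called higher (log2 fold 0.26, adjusted p = 0.0090), but it holds only the region at the lower-coordinate end. On the scaling of all regions that region was not higher, so the call came with the rescaling among such sums. The region at its lower-coordinate end (chr14:99297516-99299516) had 72.5, 70.3 and 71.1 CPM in the RANKL cultures, against 71.3, 73.9 and 79.1 CPM in the ENR cultures and was not called (log2 fold -0.069 ± 0.11 (SE), adjusted p = 0.670).

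Beyond the higher-coordinate end of Klf5, 71.4 kb away (chr14:99384855-99386855), a region rose 2.32-fold, with 34.3, 25.7 and 23.1 CPM in the RANKL cultures, against 14.9, 12.0 and 8.44 CPM in the ENR cultures (log2 fold 1.21 ± 0.17 (SE), adjusted p = 9.03e-11). The groups did not overlap. Its neighbour at 79.4 kb (chr14:99392839-99394839) was called lower, at 34.5 ± 6.95 CPM in RANKL cultures and 43.7 ± 1.63 CPM in ENR cultures (log2 fold -0.36, adjusted p = 0.0125), but not with the signal trend removed (log2 fold -0.055), on library size only, with the gene-level scaling, with DESeq2, or without RANKL replicate 3 or ENR replicate 3. A smaller rise at 52.1 kb (log2 fold 0.35, adjusted p = 0.0215) lost its call in 4 of the 6 fits without a library and 5 of 13 other settings in all. It was larger with the signal trend removed (log2 fold 0.66, adjusted p = 4.17e-06) and with the gene-level scaling (log2 fold 0.50, adjusted p = 0.000469). The region with an ONECUT2 site on the other side (chr14:99280117-99282117) had 44.3, 48.0 and 46.5 CPM in the RANKL cultures, against 39.8, 38.9 and 37.1 CPM in the ENR cultures. Every RANKL culture was above every ENR culture there, yet it was not called (log2 fold 0.26 ± 0.12 (SE), adjusted p = 0.0733) unless scaled by library size, by the gene table or with the signal trend removed (log2 fold 0.57, adjusted p = 2.46e-06).

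Klf4, the factor of differentiated gut cells, was not called in sum. Its 11 regions had 132, 150.4 and 155 CPM in the RANKL cultures, against 133, 158 and 148 CPM in the ENR cultures (log2 fold -0.0045 ± 0.070 (SE), adjusted p = 0.964), and the groups overlapped. The region across its start (chr4:55531518-55533518) had 38.2, 40.8 and 37.4 CPM in the RANKL cultures, against 33.0, 42.4 and 43.9 CPM in the ENR cultures and was not called (log2 fold -0.047 ± 0.12 (SE), adjusted p = 0.806). Single regions on either side moved in opposite directions.

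Before Klf4, 59.8 kb away (chr4:55592270-55594270), acetylation rose 3.20-fold, the steepest gain among the 77 regions. It had 12.5, 14.2 and 15.9 CPM in the RANKL cultures, against 5.41, 4.29 and 3.75 CPM in the ENR cultures (log2 fold 1.68 ± 0.27 (SE), adjusted p = 6.35e-09). Past the gene, at 54.8 kb (chr4:55470379-55472379), it fell 2.09-fold, with 9.28, 9.96 and 10.9 CPM in the RANKL cultures, against 19.1, 20.7 and 23.8 CPM in the ENR cultures (log2 fold -1.06 ± 0.19 (SE), adjusted p = 4.64e-07). Neither region overlapped between groups. The region next to that, at 61.9 kb, was lower as well, with a log2 fold of -0.63 (adjusted p = 0.00132).

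Klf7, best known from developing neurons, had 4 regions that summed to 210.0, 199 and 197 CPM in the RANKL cultures, against 164, 153 and 180.0 CPM in the ENR cultures (log2 fold 0.29 ± 0.063 (SE), adjusted p = 5.38e-05). That call depended on scaling: on the scaling of the region table the log2 fold was 0.14 (adjusted p = 0.0860). A called rise lay inside the gene, 15.9 kb past the start (chr1:64104506-64106506), with 47.5, 37.7 and 37.4 CPM in the RANKL cultures, against 27.8, 25.2 and 27.2 CPM in the ENR cultures (log2 fold 0.61 ± 0.13 (SE), adjusted p = 2.14e-05), and the groups did not overlap. The region across the Klf7 start (chr1:64120857-64122857), which overlaps an ONECUT2 site, had 121, 116 and 110.0 CPM in the RANKL cultures, against 117, 104 and 131 CPM in the ENR cultures; its groups overlapped and it was not called (log2 fold -0.014 ± 0.10 (SE), adjusted p = 0.939). A weak region 92.3 kb past the gene (chr1:63935197-63937197) was called higher (log2 fold 0.95, adjusted p = 0.0271, 6.78 ± 2.59 CPM in RANKL cultures and 3.44 ± 1.31 CPM in ENR cultures), but not without RANKL replicate 2 or ENR replicate 1, with the signal trend removed or with DESeq2.

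Klf2, which keeps lymphocytes quiescent and responds to blood flow in endothelium, had 2 regions. The one across its start (chr8:72317982-72319982) had 22.1, 15.7 and 25.3 CPM in the RANKL cultures, against 19.1, 21.0 and 22.3 CPM in the ENR cultures and was not called (log2 fold 0.026 ± 0.16 (SE), adjusted p = 0.921). The one 7.04 kb before the gene (chr8:72310024-72312024) fell 2.25-fold, with 2.86, 3.02 and 5.31 CPM in the RANKL cultures, against 8.50, 8.25 and 9.38 CPM in the ENR cultures (log2 fold -1.17 ± 0.32 (SE), adjusted p = 0.00137). The groups overlapped at the start and not at the region before it. Over all genes tested, 25.0% were called higher and 26.9% lower as gene sums. Of the endothelial markers, 6 of 10 measured were called higher and 3 lower, with a summed level of 601 to 616 CPM in RANKL cultures and 505 to 523 CPM in ENR cultures. Of the leukocyte markers, 5 of 7 were higher and 1 lower (184 to 197 CPM in RANKL cultures and 139 to 159 CPM in ENR cultures), and of the mesenchymal markers 5 of 11 were higher and 0 lower (366 to 385 CPM in RANKL cultures and 284 to 298 CPM in ENR cultures). No region was assigned to Tie1, Cd3e or Lum, and the part of such cells in the values of the Kruppel-like factors was not tested.

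Klf3, which represses through CtBP, was lower in sum, at 171, 181 and 168 CPM in the RANKL cultures, against 207, 192 and 198 CPM in the ENR cultures (log2 fold -0.20 ± 0.061 (SE), adjusted p = 0.00463). Klf3 regions within 10 kb of the gene, scaled among such sums, had a log2 fold of 0.0092 (adjusted p = 0.938). The strong region 28.1 kb past the gene (chr5:64860981-64862981) had 64.3, 78.8 and 67.3 CPM in the RANKL cultures, against 101, 87.9 and 97.9 CPM in the ENR cultures (log2 fold -0.44 ± 0.11 (SE), adjusted p = 0.000315), all RANKL cultures being lower. A weaker one at 19.0 kb (chr5:64851885-64853885) fell 1.98-fold, with 7.27 ± 1.82 CPM in RANKL cultures and 14.5 ± 1.79 CPM in ENR cultures (log2 fold -0.99 ± 0.24 (SE), adjusted p = 0.000177). The region across the Klf3 start (chr5:64802202-64804202) had 65.7, 57.1 and 51.4 CPM in the RANKL cultures, against 70.5, 68.7 and 72.6 CPM in the ENR cultures (log2 fold -0.29, adjusted p = 0.0288), without overlap. Its call ended in 4 of the 6 fits without a library (without RANKL replicate 2 or 3, or ENR replicate 1 or 3) and with the signal trend removed (log2 fold -0.047), 8 of 13 other settings in all. The region at the other end of Klf3 (chr5:64832530-64834530), with 10.5 ± 2.28 CPM in RANKL cultures and 8.14 ± 1.41 CPM in ENR cultures, was not called (log2 fold 0.39, adjusted p = 0.229).

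Klf15, a regulator of glucose and amino acid metabolism in liver and muscle, had 3 regions. They summed to 28.2, 25.6 and 26.9 CPM in the RANKL cultures, against 31.7, 32.7 and 29.3 CPM in the ENR cultures and were not called (log2 fold -0.22 ± 0.14 (SE), adjusted p = 0.179), though every RANKL culture was below every ENR culture. The region inside the gene (chr6:90476285-90478285) fell 2.52-fold, with 3.57, 6.04 and 3.13 CPM in the RANKL cultures, against 13.3, 10.6 and 8.06 CPM in the ENR cultures (log2 fold -1.33 ± 0.30 (SE), adjusted p = 5.04e-05) and no overlap. The strongest of the 3, 14.4 kb past the gene (chr6:90506209-90508209), had 12.9 ± 4.38 CPM in RANKL cultures and 14.4 ± 1.60 CPM in ENR cultures and was not called (adjusted p = 0.529). None of the 3 overlapped the RefSeq promoter window of Klf15.

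**Figure D3:**
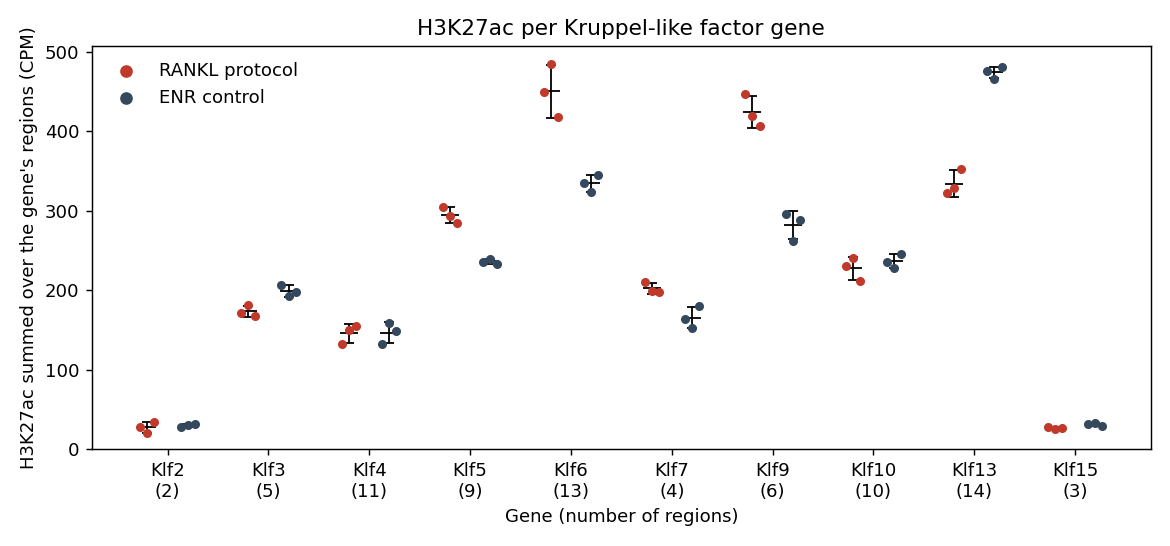
Points give H3K27ac summed over all regions of each gene (CPM, y axis from 0) in the 3 RANKL (red) and 3 ENR (dark) cultures, with bars for the mean and SD and the number of regions under each name. Klf5, Klf6, Klf7 and Klf9 are higher with RANKL and Klf3 and Klf13 lower.

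Of the gene sums, 4 of the 10 genes were called higher (Klf5, Klf6, Klf7 and Klf9) and 2 lower (Klf3 and Klf13). Over all genes tested, 25.0% were called higher and 26.9% lower, 51.8% in all. All RANKL cultures were above all ENR cultures at the same 4 genes and below them at 3 (Klf3, Klf13 and Klf15), against 27.7% and 29.5% of all genes. Regions and gene sums each had their own TMM factors, and the gene-level ones alone set log2 folds 0.15 above those of regions. On the scaling of the region table, where the median gene stood at -0.14, Klf7 was not called and Klf10 (log2 fold -0.21, adjusted p = 0.00514) and Klf15 (log2 fold -0.37, adjusted p = 0.0188) were called lower. Rbbp6 was among the genes whose log2 level followed that of Klf9 most closely over the 6 libraries (Pearson r = 0.998, n = 6, with 134 CPM in RANKL cultures and 111 CPM in ENR cultures), as were Stam, Cby1 and Elfn2, and 70 of 16038 genes had an r over 0.99.

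No region at a member gene's own start was called higher. Of the 7 regions that overlap a member's own RefSeq promoter window, 2 were lower (Klf13 and Klf3) and 0 higher, and the other 5 (Klf2, Klf4, Klf6, Klf7 and Klf9) had log2 folds of -0.047 to 0.035. The median log2 fold of the 7 was -0.014. Over all 9992 regions that overlap a promoter window, 6.18% were called higher and 51.3% lower, with a median of -0.36. A p that misses the threshold does not show that these 5 starts did not differ. In the 63 member regions away from any promoter window, 13 were higher and 15 lower, against 16.8% and 14.3% of all such regions. The member regions in neither class overlap a RefSeq promoter window of a gene symbol other than their own. These shares are a description, and no test of the family against other regions was made.

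**Figure D4:**
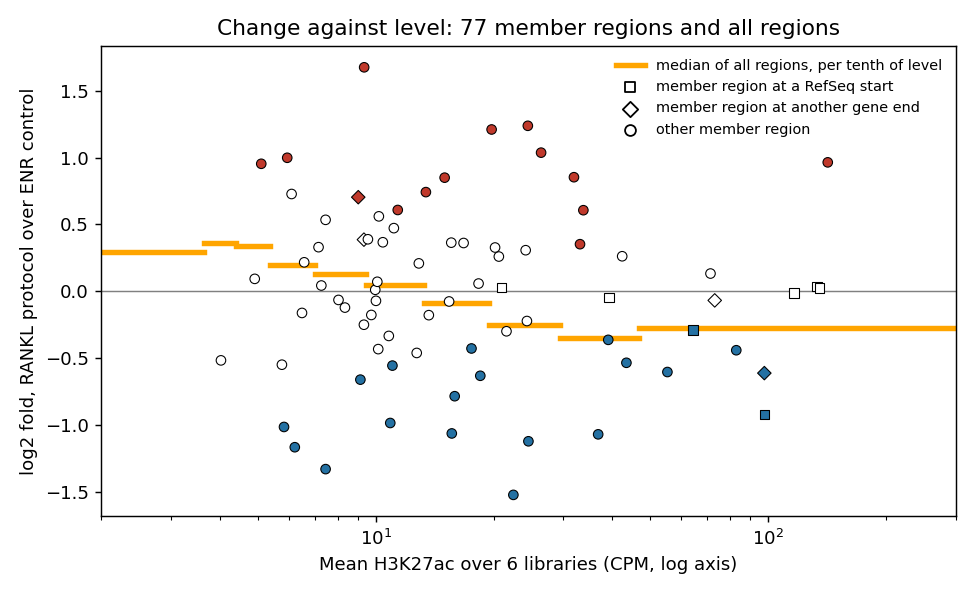
The x axis gives mean H3K27ac over the 6 libraries (CPM, log axis) and the y axis the log2 fold of RANKL over ENR cultures for the 77 member regions, red where called higher and blue where called lower, with squares at RefSeq starts and diamonds at other gene ends. Orange bars mark the median of all regions in each of 10 classes of level. In the highest class that median is -0.28, and the Klf9 region at 0.97 is the only gain called among its 11 member regions.

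The second antibody placed ONECUT2 at 6 of the 10 genes, against 26.7% of all genes with a region, and no test of that difference was made. These 10 genes had 77 assigned regions, while all 16105 genes with a region had 47713. Counted by region, 4 of the 77 overlapped a listed site, against 2925 of all 54765 regions tested. All site values are from the authors' deposited table, which gives a mean per condition and no value per library, so no SD can be given. In the authors' deposited table all 10 member sites were listed as higher with RANKL, and the sites listed as higher were 93.9%, and those listed as lower 0.0905%, of the sites whose testing the p ranks imply. The 10 sites' log2 folds ran from 1.27 to 2.31 with a median of 1.61, against a median of 1.86 over all listed sites in the authors' deposited table. No site was listed within 100 kb of Klf2, Klf10, Klf13 or Klf15 with these as the nearest genes.

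Klf7 had 3 sites. In the authors' deposited table the one inside the gene just past the start (chr1:64120930-64121330), next to the printed window, had 41.9 mean normalised reads in RANKL cultures and 16.8 in ENR cultures (log2 fold 1.28, FDR 0.000191). The authors' deposited table gives the second, 23.4 kb into the gene (chr1:64097783-64098183), 45.4 mean normalised reads in RANKL cultures and 12.6 in ENR cultures (log2 fold 1.76, FDR 2.87e-06), and the third, 65.7 kb before the gene (chr1:64188026-64188426), 17.1 mean normalised reads in RANKL cultures and 4.93 in ENR cultures (log2 fold 1.68, FDR 0.00117). The site at the start lies in the acetylated region that was not called, and the others lie 6323 and 4170 bp from the nearest region.

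The strongest member site was 76.6 kb before Klf4 (chr4:55609052-55609452), with 147 mean normalised reads in RANKL cultures and 59.7 in ENR cultures (log2 fold 1.27, FDR 2.65e-07) in the authors' deposited table. It was already the most occupied of the 10 in ENR cultures, and its RANKL level exceeded that of 97.5% of listed sites. The acetylated region around it (chr4:55608374-55610374) was weak and not called, with 4.28, 8.45 and 10.6 CPM in the RANKL cultures, against 6.18, 4.73 and 8.63 CPM in the ENR cultures (log2 fold 0.33 ± 0.29 (SE), adjusted p = 0.405). The region that rose 3.20-fold is another one, nearer to Klf4.

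At Klf6 the single site (chr13:5832150-5832550) had 36.1 mean normalised reads in RANKL cultures and 8.81 in ENR cultures (log2 fold 1.95, FDR 2.92e-06) in the authors' deposited table. It lies in the region 28.3 kb before the gene whose acetylation rose 2.36-fold, the only one of the 4 member regions with an ONECUT2 site that was called.

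Klf5 had a site on each side. The authors' deposited table gives 22.2 mean normalised reads in RANKL cultures and 3.94 in ENR cultures (log2 fold 2.31, FDR 2.02e-05) for the one 17.8 kb beyond the lower-coordinate end (chr14:99280443-99280843), which had the highest fold of the 10 sites. It gives 33.2 mean normalised reads in RANKL cultures and 7.78 in ENR cultures (log2 fold 1.95, FDR 1.34e-05) for the one 50.8 kb beyond the higher-coordinate end (chr14:99364260-99364660, authors' deposited table). That site lies 822 bp from the region whose call as a smaller rise depended on single libraries and on scaling.

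Klf3 had a site inside the gene (chr5:64812033-64812433) with 25.7 mean normalised reads in RANKL cultures and 8.88 in ENR cultures (log2 fold 1.48, FDR 0.000555), and one 31.9 kb past it (chr5:64864813-64865213) with 21.2 mean normalised reads in RANKL cultures and 7.01 in ENR cultures (log2 fold 1.53, FDR 0.00136), both from the authors' deposited table. The site past the gene lies 1832 bp from the strong region that lost acetylation. The site inside Klf9 (chr19:23148142-23148542) had 16.5 mean normalised reads in RANKL cultures and 5.60 in ENR cultures (log2 fold 1.41, FDR 0.00612) in the authors' deposited table and lies 2207 bp from a region that was not called, on the other side of the start from the region that gained acetylation.

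**Figure D5:**
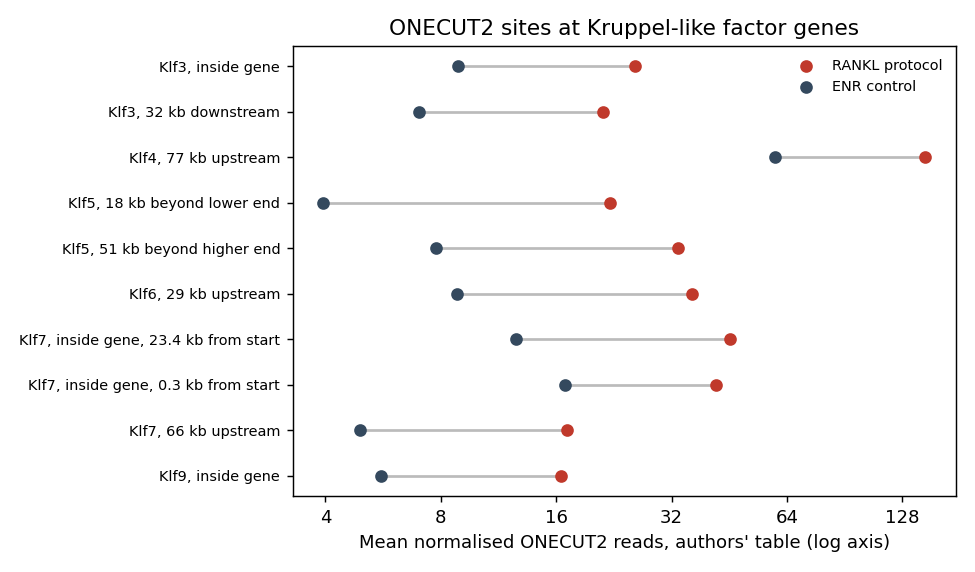
Each row is an ONECUT2 site at a Kruppel-like factor gene, with the authors' mean normalised reads in RANKL (red) and ENR (dark) cultures on a log axis; there are no values per library. All 10 red points lie right of the dark ones, and the Klf4 site is the most occupied in both groups.

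Over all 2925 regions tested that overlap a listed site, 22.6% were called higher and 26.3% lower, with a median log2 fold of 0.032. The 4 member regions with a site had log2 folds of -0.014, 0.26, 0.33 and 1.24.

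The other genes of the SP/KLF family were measured as gene sums. Of 16, 2 were called higher and 5 lower, where 25.0% and 26.9% of all genes were. Their median log2 fold was -0.025, against 0.013 over all genes. The smallest adjusted p was at Sp9 (11.4 ± 1.56 CPM in RANKL cultures and 33.3 ± 0.954 CPM in ENR cultures; log2 fold -1.52 ± 0.17, adjusted p = 3.40e-12). Klf16, which also binds SIN3A, was next (45.3 ± 4.12 CPM in RANKL cultures and 72.2 ± 3.74 CPM in ENR cultures; log2 fold -0.68 ± 0.10, adjusted p = 2.91e-08), then Sp7, a bone-forming cell factor (10.6 ± 2.18 CPM in RANKL cultures and 17.3 ± 2.30 CPM in ENR cultures; log2 fold -0.75 ± 0.22, adjusted p = 0.00277), and Sp4 (83.9 ± 11.6 CPM in RANKL cultures and 102 ± 2.99 CPM in ENR cultures; log2 fold -0.27 ± 0.085, adjusted p = 0.00533). The higher genes were Klf8 and Klf12, the CtBP-binding relatives of Klf3, at log2 folds of 0.60 and 0.13; these names were picked after their values were seen.

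Of 15 cofactors and regulators of these proteins, 3 were higher and 6 lower, where 25.0% and 26.9% of all genes were, with a median of 0.019. The 4 smallest adjusted p were at the corepressor genes Ctbp1 (60.4 ± 2.81 CPM in RANKL cultures and 82.6 ± 6.03 CPM in ENR cultures; log2 fold -0.45 ± 0.093, adjusted p = 3.74e-05) and Sin3a (30.8 ± 3.61 CPM in RANKL cultures and 45.4 ± 2.62 CPM in ENR cultures; log2 fold -0.57 ± 0.12, adjusted p = 7.77e-05), each with a single region and lower with RANKL, at Fhl3, a LIM-domain partner of KLF3 (54.5 ± 6.25 CPM in RANKL cultures and 75.0 ± 2.33 CPM in ENR cultures; log2 fold -0.45 ± 0.097, adjusted p = 5.87e-05), and at the acetyltransferase gene Crebbp, which was higher (95.1 ± 10.6 CPM in RANKL cultures and 73.6 ± 5.28 CPM in ENR cultures; log2 fold 0.36 ± 0.088, adjusted p = 0.000322). Of 7 measured genes listed as targets, 4 were higher and 1 lower (25.0% and 26.9% of all genes), with a median of 0.29. Smad7, which KLF10 represses, was higher (226 ± 5.69 CPM in RANKL cultures and 179 ± 8.37 CPM in ENR cultures; log2 fold 0.34 ± 0.059, adjusted p = 8.02e-07), as was Lgals3, which KLF3 represses (161 ± 6.03 CPM in RANKL cultures and 136 ± 6.28 CPM in ENR cultures; log2 fold 0.25 ± 0.067, adjusted p = 0.00140). The cell cycle inhibitor gene Cdkn1a, which KLF4 activates, was higher as well (75.2 ± 1.09 CPM in RANKL cultures and 62.0 ± 6.07 CPM in ENR cultures; log2 fold 0.29 ± 0.095, adjusted p = 0.00785), and the mitotic cyclin gene Ccnb1, which KLF4 represses, was lower (25.9 ± 2.36 CPM in RANKL cultures and 35.2 ± 2.93 CPM in ENR cultures; log2 fold -0.43 ± 0.14, adjusted p = 0.00673). S1pr1, which KLF2 activates in T cells, was the other target called higher (27.8 ± 6.21 CPM in RANKL cultures and 20.8 ± 4.38 CPM in ENR cultures; log2 fold 0.40 ± 0.16, adjusted p = 0.0327), and Ccnd1 (log2 fold 0.12, adjusted p = 0.0732) and Alpi (log2 fold 0.29, adjusted p = 0.129) were not called; these 3 were named after their values were seen. The targets Thbd, Nos3 and Ccl5 had no assigned region.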

How the data were processed

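H3K27ac and ONECUT2 ChIPmentation libraries of mouse small intestinal organoids were compared between RANKL and ENR cultures. The authors deposited raw read counts for 55050 H3K27ac regions of 2000 bp, and a second table that is a score (the log of the count plus 1, centred and scaled within each library, to within 4.2e-05), used once, as an alternative. The ONECUT2 values are log2 too: the authors' deposited DiffBind table gives a mean read level per condition on the log2 scale, a log2 fold change, a p-value and an FDR per site, per the file headers; it lists 7268 sites up to an FDR of 0.0496, and its p ranks imply 7734 tested. Build mm10 and DiffBind come from the submitters' processing notes; no source used here gives the aligner or the DiffBind version. Region coordinates are printed as deposited, and it is not known whether starts count from 0.

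Regions and sites went to the nearest of 21900 RefSeq protein-coding gene spans (GRCm38.p6) within 100 kb, ties to the span with the nearer end. Counts of regions, and their sums per gene, were tested with edgeR 4.0.16 (R 4.3.3; TMM, filterByExpr, no block). SE was taken from the fold and its F statistic. Pairs of libraries of a group differed by more than sampling noise (chi-square per degree of freedom 1.79 to 2.06). Replicate numbers mark experiments in the labels and were taken as pairs; deviations of same-numbered libraries correlated at -0.027 to 0.014. Named regions were, per gene, the strongest, the called region of largest rise and fall, those at a gene end, those called with a log2 fold of at least 1 either way, and those with an ONECUT2 site; other called regions that are named were chosen after their values were seen. The members and lists were chosen with earlier results of these data known. Input libraries were not analysed here, and some items that these rules name are not reported here.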

Additional observations from a re-analysis of the deposited data

How the results depend on the processing

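Leaving out 1 library at a time left 10 to 13 member regions higher and 15 to 19 lower, and no summed gene changed its call. The replicate block gave 14 higher and 18 lower member regions and changed no gene call. DESeq2 (1.42.0) gave 10 and 15, and limma (3.58.1) on the authors' scores 16 and 17. By library size only, 22 member regions were higher, of 9918 over all regions; on the scaling of the gene table, added after the data were seen, 24 of 11442. That scaling turned round gave Klf7 0.14, Klf10 -0.21 and Klf15 -0.37 as log2 folds of gene sums. With the signal trend removed, Klf10 was called lower (-0.15). Against a minimum fold of 1.5, 6 member regions were higher and 6 lower, of 3012 and 2613 over all regions, and none of the gene sums of Klf3, Klf5, Klf6, Klf7, Klf9 and Klf13 was called (log2 folds -0.20, 0.31, 0.43, 0.29, 0.59 and -0.50). Within 10 kb of the genes, 5 member regions were higher and 8 lower and 4 ONECUT2 sites remained; Klf3 turned to 0.0092, Klf5 was not called (0.18), and Klf10 (-0.39) and Klf15 (-1.14) were called lower. Within 2 kb of gene ends, 1 region was higher and 3 lower. There, rescaled among such sums, Klf3 stood at 0.12 (not called) and Klf4 at 0.28 (called higher, adjusted p = 0.0340). Klf5 was 0.26 (called higher, adjusted p = 0.0090) and Klf10 was -0.28. At Klf4 and Klf5 such a sum holds only the region at a gene end. On the scaling of all regions these regions were not called (log2 folds -0.047 and -0.069), so the calls came with the rescaling. Of the 34 called member regions, 21 kept their call in all 13 other settings. Those 13 leave out the minimum fold of 1.5, the authors' scores and the limits on distance. Sums within a distance were rescaled among themselves. Counts in weak regions limit the precision, and the cause of these changes was not tested.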

Other observations

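The limit of 100 kb left out H3K27ac regions that lie further away but still have a Kruppel-like factor gene as the nearest protein-coding gene. There were 47 of these, at Klf4, Klf5, Klf6 and Klf7, up to 612 kb from the gene. Of them 24 were called higher with RANKL, 1 lower and 22 were not called, against 18.6% higher and 5.27% lower among all 7270 tested regions over 100 kb from a gene span (edgeR, adjusted over all regions). By gene, 11 of 21 were higher at Klf6, 8 of 12 at Klf5, 3 of 9 at Klf4 and 2 of 5 at Klf7. This count was made after the data were seen, and the nearest gene need not be the one a region acts on.

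The smallest adjusted p among these 47 was 200.0 kb before Klf4 (chr4:55732449-55734449). The region had 55.7, 62.8 and 63.7 CPM in RANKL cultures, against 4.06, 7.04 and 5.06 CPM in ENR cultures (log2 fold 3.42 ± 0.16 (SE), adjusted p = 3.71e-78), a 10.7-fold rise, larger than that of any of the 77 regions. It holds an ONECUT2 site (chr4:55732782-55733182) at 21.1 mean normalised reads in RANKL cultures in the authors' deposited table, which lists the ENR mean at 0 on the log2 scale (FDR 5.26e-06). At Klf5 a region 138 kb away (chr14:99451685-99453685) had 28.9, 23.9 and 24.8 CPM in RANKL cultures, against 4.83, 6.93 and 6.75 CPM in ENR cultures (log2 fold 2.03 ± 0.20 (SE), adjusted p = 8.61e-21). At Klf6 a region 273 kb away (chr13:6143760-6145760) had 17.9, 15.1 and 20.3 CPM in RANKL cultures, against 2.51, 4.73 and 3.19 CPM in ENR cultures (log2 fold 2.28 ± 0.26 (SE), adjusted p = 1.96e-16). Just outside the limit, 103 kb before Klf7 (chr1:64225214-64227214), a region had 30.0, 27.5 and 27.2 CPM in RANKL cultures, against 10.4, 8.91 and 8.81 CPM in ENR cultures (log2 fold 1.59 ± 0.18 (SE), adjusted p = 1.52e-16), while just inside it, 99.8 kb past Klf6, the log2 fold was 0.61. The authors' deposited table lists 9 ONECUT2 sites in these outlying stretches, 5 of them nearest to Klf6.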
